A study of Mus musculus with 24 samples.

Results

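The 10 voltage-gated calcium channel genes described here were the rows of the count table whose Ensembl identifier, with its version dropped, carried the mouse GENCODE symbol Cacna1a, Cacna1b, Cacna1c, Cacna1d, Cacna1e, Cacna1g, Cacna1h, Cacna1i, Cacna2d1 or Cacna2d2. All 10 were found among the 18647 rows and all 10 passed the filter on low counts, which left 18153 genes for testing. The members were listed by name, with earlier results of these data known. The libraries came from polyA RNA of the microdissected hippocampal CA1 region, a field of pyramidal neurons, of C57Bl/6N mice at least 60 days old that weighed at least 20 g. In the SE groups, status epilepticus (SE, a prolonged seizure) was induced by 335 mg/kg pilocarpine after 1 mg/kg scopolamine methyl nitrate, and diazepam at 4 mg/kg was injected 40 min after its onset. Animals that did not develop SE after pilocarpine were not used. Control (Ctr) mice went through the same procedure with saline in place of pilocarpine. The SE groups were taken at 5 intervals after SE (6, 12, 24, 36 or 72 h) and the Ctr groups at 3 of them (12, 36 or 72 h), with 3 libraries in each of the 8 groups, so 15 SE and 9 Ctr libraries. No source used here says whether a library held 1 mouse or several, so the p-values measure spread between these libraries. It is the spread left after a fit with 1 factor for unwanted variation, and all groups shared 1 estimate of it. That factor was -0.38, 0.80 and -0.37 in Ctr 72 h replicates 1, 2 and 3. In the other libraries it lay between -0.10 and 0.14, so it mainly took up spread within Ctr 72 h.

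Voltage-gated calcium channels open when the membrane depolarises and let calcium into the cell, where it triggers transmitter release, shapes firing and signals to the nucleus. The pore is the alpha1 subunit, which sets the channel type: Cacna1c and Cacna1d encode L-type, Cacna1a P/Q-type, Cacna1b N-type, Cacna1e R-type, and Cacna1g, Cacna1h and Cacna1i the low-voltage-activated T-type channels. The alpha2delta subunits, here Cacna2d1 and Cacna2d2, carry high-voltage-activated channels to the membrane, and both bind gabapentin. In CA1 pyramidal neurons, T-type and R-type currents feed burst firing and the afterdepolarisation, and P/Q-type and N-type channels drive transmitter release.

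The deposited totals ran from 2663936 to 30133731 counts per library with a median of 13521590, and 1 of the Ctr 72 h libraries was the shallowest. The counts of the members lay between 97 (Cacna1d) and 11800 (Cacna1e) per library. Markers of the labelled tissue were present: 7 of 8 genes of the CA1 pyramidal cell list were in the table, with summed levels of 784 to 1586 CPM (counts scaled to library size) in Ctr and 416 to 995 CPM in SE libraries. Genes listed for neighbouring hippocampal fields were present too. The CA3 list reached 830 CPM in Ctr 12 h, where the median was 352 CPM. The lowest summed CA1 level among the Ctr libraries, 784 CPM, was that of Ctr 12 h replicate 3. This library also held the highest Ctr values of Cacna1a (222 CPM) and Cacna1c (172 CPM) and the lowest of Cacna1g (113 CPM). The dentate granule list was at 87.3 to 110 CPM in Ctr 36 h and 155 to 286 CPM in SE 36 h. At 12 h it overlapped, at 135 to 207 CPM in Ctr and 137 to 269 CPM in SE. In 6 libraries a list of 12 sensory ganglion genes stood apart, at 346 to 1820 CPM (SE 6 h replicate 3, SE 12 h replicate 1, SE 36 h replicate 3, SE 72 h replicates 1 and 2, Ctr 72 h replicate 2), against 10.5 to 76.5 CPM in the other 18. The submitters gave each sample a number, and these numbers fell into 3 ranges (92 to 104, 109 to 122 and 162 to 169) that were not spread evenly over the groups, with all 3 Ctr 72 h libraries in the last range.

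In GRCm39, Cacna1a lies on the plus strand at chr8:85065224-85367997, Cacna1b on the minus strand at chr2:24493899-24653221 and Cacna1e on the minus strand at chr1:154266477-154760247. The L-type genes lie on the minus strand at chr6:118564201-119173851 (Cacna1c) and chr14:29761896-30213412 (Cacna1d). The T-type genes lie at chr11:94299217-94365230 (Cacna1g, minus), chr17:25593259-25652764 (Cacna1h, minus) and chr15:80171436-80282482 (Cacna1i, plus). Cacna2d1 lies at chr5:16139372-16579509 and Cacna2d2 at chr9:107276811-107406543, both on the plus strand. The reads were counted without regard to strand, and exons of genes on the opposite strand covered 1297 bases of Cacna1a, 1624 of Cacna1d (the protein-coding gene Chdh and a long non-coding RNA), 323 of Cacna1g, 247 of Cacna1h (Tpsg1 and a long non-coding RNA) and 82 of Cacna2d2. Reads there cannot be assigned to either gene.

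The promoters of the members whose expression fell past the thresholds, Cacna1e and Cacna2d1, are shown with that of Cacna1h, a T-type gene known from earlier work on pilocarpine SE as a target of the transcription factors EGR1 and MTF1. Each runs 5′ to 3′ on the strand of the gene, from 250 bases before the start of the GENCODE canonical transcript to 50 bases into it, in GRCm39 (Cacna1e chr1:154602469-154602768, minus; Cacna2d1 chr5:16139122-16139421, plus; Cacna1h chr17:25652715-25653014, minus). Capitals mark a match to any of 5 motifs searched on both strands: the EGR site GCGTGGGCG or GCGGGGGCG, the metal response element bound by MTF1 (TGCGCNC or TGCACNC), the REST half-site TTCAGCACC, the TATA box TATAAA and the cyclic AMP response element TGACGTCA.
Cacna1e: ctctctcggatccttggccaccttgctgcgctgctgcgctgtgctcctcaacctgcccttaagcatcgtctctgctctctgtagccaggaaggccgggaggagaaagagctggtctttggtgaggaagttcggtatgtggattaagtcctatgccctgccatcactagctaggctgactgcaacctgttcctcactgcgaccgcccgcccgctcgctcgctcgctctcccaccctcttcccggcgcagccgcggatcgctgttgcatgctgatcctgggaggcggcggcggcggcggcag
Cacna2d1: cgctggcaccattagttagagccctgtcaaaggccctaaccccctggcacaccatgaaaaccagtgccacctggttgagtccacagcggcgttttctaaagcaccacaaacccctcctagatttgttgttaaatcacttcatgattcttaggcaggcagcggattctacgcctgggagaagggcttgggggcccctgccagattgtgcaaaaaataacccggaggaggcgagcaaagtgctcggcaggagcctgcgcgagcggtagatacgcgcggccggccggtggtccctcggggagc
Cacna1h: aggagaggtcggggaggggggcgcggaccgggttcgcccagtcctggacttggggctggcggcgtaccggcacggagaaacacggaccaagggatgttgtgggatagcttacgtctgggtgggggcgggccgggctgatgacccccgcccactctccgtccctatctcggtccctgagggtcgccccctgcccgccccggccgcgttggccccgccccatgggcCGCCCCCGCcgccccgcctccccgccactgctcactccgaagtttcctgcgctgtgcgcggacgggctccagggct
The Cacna1h promoter held the EGR letters once, read on the opposite strand, starting 26 bases before the transcript start. The Cacna1e and Cacna2d1 windows held none of the 5 motifs, which says only that these letters are not in these windows. Over the 10 members, 3 promoters held EGR letters (Cacna1a, Cacna1b with 2 matches, and Cacna1h) and 3 held metal response letters (Cacna1a, Cacna1d and Cacna1i). Of 21757 protein-coding promoters of the same length, 3.96% held EGR, 27.4% metal response, 0.308% REST half-site, 2.45% cyclic AMP response and 13.2% TATAAA letters. The matches describe sequence and were not tested as binding sites.

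To compare genes with each other, CPM were divided by the length of the merged exons in kb. The order depends on these lengths, for example 25632 bases for Cacna1e and 10343 for Cacna1g. By CPM without them, Cacna1e had the highest median in Ctr, 395 CPM, against 209 CPM for Cacna1g and 194 CPM for Cacna1h. In the 9 Ctr libraries the T-type genes Cacna1g (18.1 ± 4.26 CPM per kb, SD) and Cacna1h (17.8 ± 3.10) led, followed by the N-type gene Cacna1b (16.3 ± 2.22) and the R-type gene Cacna1e (15.4 ± 2.05). Cacna2d1 (10.5 ± 1.52), Cacna1i (9.85 ± 2.33), Cacna1a (7.78 ± 1.86) and Cacna2d2 (7.26 ± 1.57) came next, and the L-type genes Cacna1c (4.32 ± 1.37) and Cacna1d (3.83 ± 0.85) were lowest. The library ranges of each pair of neighbours in this order overlapped. The 9 values of Cacna1b, from 13.5 to 18.8 CPM per kb, and of Cacna1h, from 13.7 to 21.8, lay above all 9 of Cacna2d1, from 8.06 to 12.5, while those of Cacna1g (from 10.9) and Cacna1e (from 11.8) reached into that range.

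**Figure D1:**
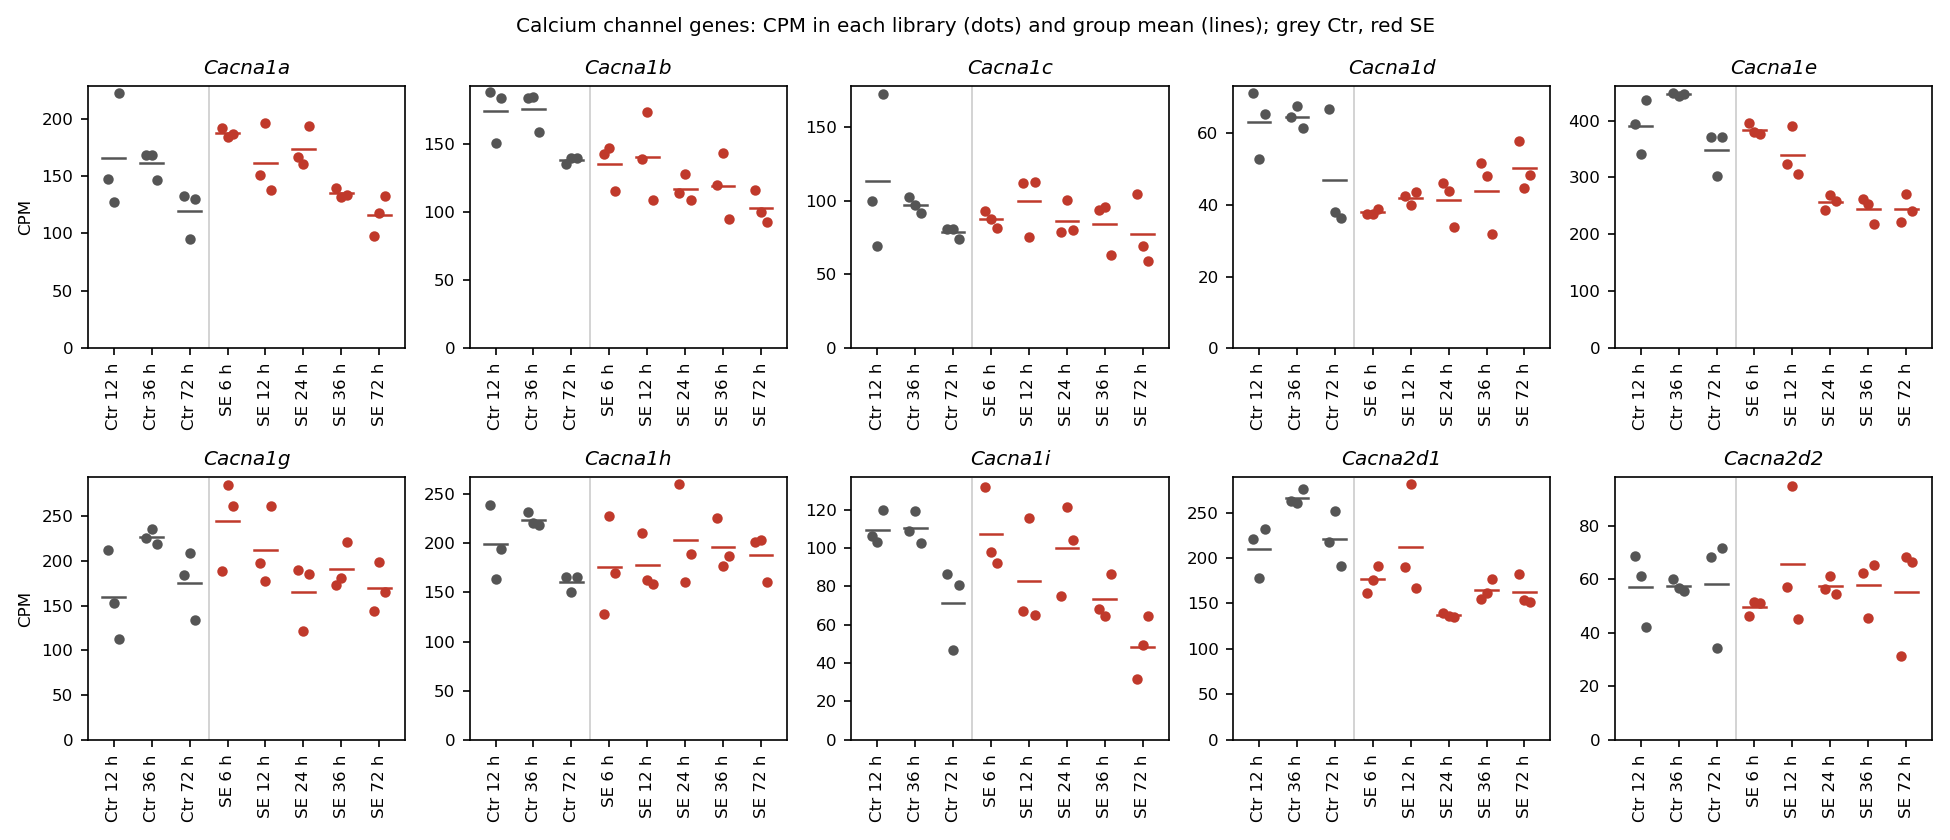
CPM (normalised by the trimmed mean of M values, linear axes from 0) of the 10 genes in each of the 24 libraries, with dots for libraries, lines for the mean of 3, grey for Ctr and red for SE. Cacna1e sits between 218 and 272 CPM in the 9 SE libraries of 24, 36 and 72 h, below the lowest Ctr library at 303 CPM.

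To ask whether the channel genes changed after SE, each SE group was compared with the Ctr group of its hour, or, at 6 and 24 h, with the mean of the 3 Ctr groups. The study's methods give no hour of day for the injections. If it was the same for all mice, 12 and 36 h shared a time of day, and 24 and 72 h shared another. The reference at 24 h and the step from SE 12 h to SE 24 h would then mix times of day, and 6 h would have no matched Ctr group. Time of day was not tested. A gene was called when edgeR's quasi-likelihood test gave a Benjamini-Hochberg adjusted p of at most 0.05 over all genes tested and the absolute log2 fold change was at least 0.66. No channel gene was called higher in any comparison. At 12 h, 0 of the 10 were called, in a comparison in which 25.2% of all genes were. At 36 h, 2 of 10 were called, Cacna1e and Cacna2d1, both lower, beside 21.6% of all genes, and 8.91% of all genes were called lower. At 72 h, 0 of 10 were called beside 19.4% of all genes. At 6 h the count was 0 beside 22% and at 24 h it was 1 (Cacna2d1) beside 24.1%. Where the count was 0, edgeR gave an unadjusted p under 0.05 for 1 member at 12 h and for 4 each at 72 and 6 h, and DESeq2 and limma-voom also called 0. Of the 18153 genes tested, 8534, 7113 and 8708 had such a p at 12, 72 and 6 h. Counting any size of change at an adjusted p of at most 0.05, 1 member passed in the 12 h comparison (38.5% of all genes). The counts were 4 for 36 h (31.7%), 2 for 72 h (28.1%), 3 for 6 h (39.9%) and 4 for 24 h (41.3%). Of these, the only one in the higher direction was Cacna1a at 6 h. The median log2 fold change of the 10 genes, taken in the order 12, 36 and 72 h, was -0.18, -0.41 and -0.04, against medians of 0.01, 0.00 and 0.10 over all genes tested. In bulk tissue, fewer cells of a type and less RNA per cell cannot be told apart.

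**Figure D2:**
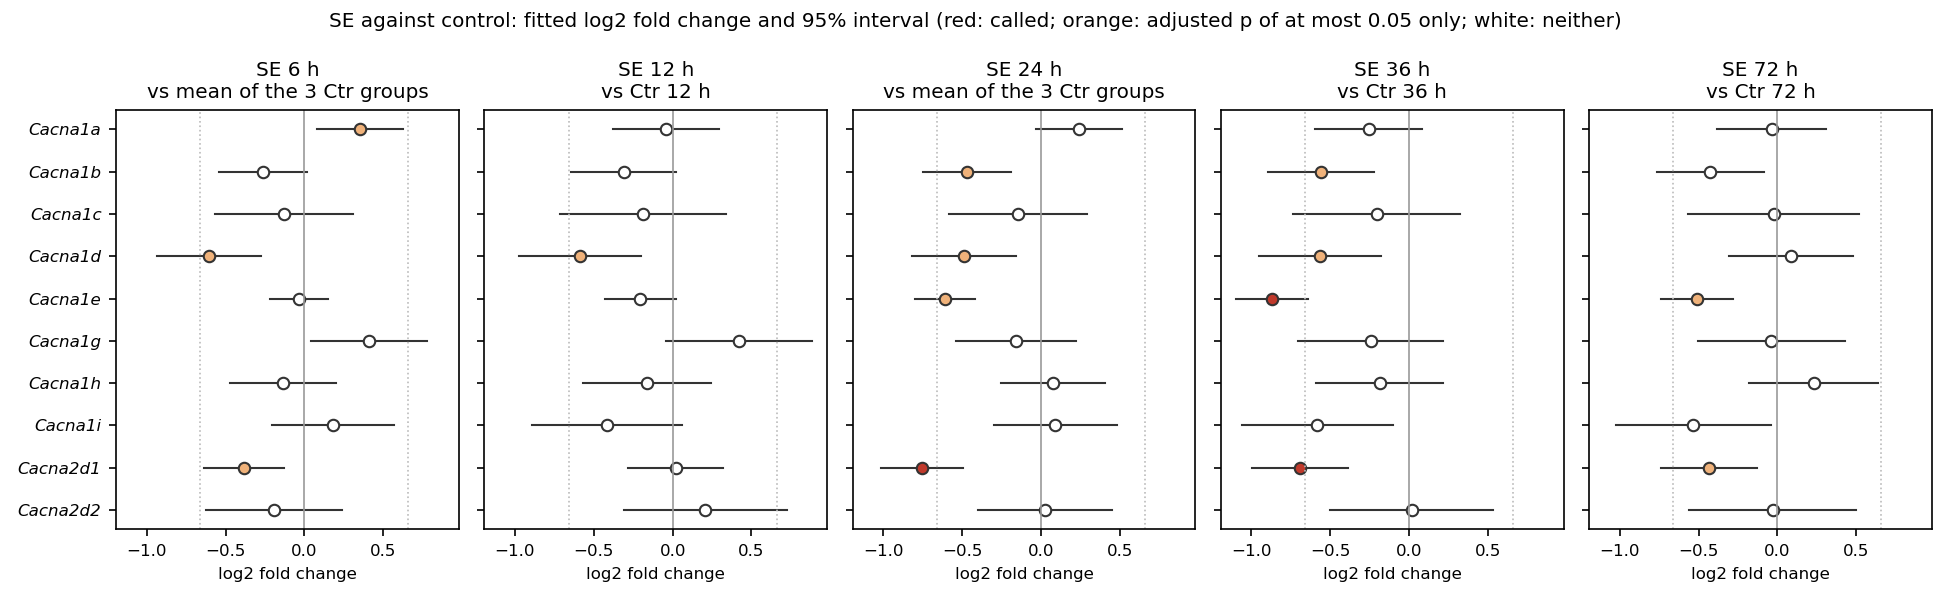
Fitted log2 fold change (dots) with its 95% interval (lines) for each gene in the 5 comparisons of SE with control, with dotted lines at -0.66 and 0.66; red dots were called, orange ones had an adjusted p of at most 0.05 only. Red dots stand at Cacna1e (-0.87 at 36 h) and Cacna2d1 (-0.75 at 24 h and -0.69 at 36 h).

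Cacna1e, the R-type alpha1 gene, had the largest fitted fall of the 10 genes. At 36 h its level was 262, 254 and 218 CPM in the SE libraries and 449, 443 and 447 CPM in the Ctr libraries, so the groups were far apart and the controls were tight. The log2 fold change was -0.87 (95% interval -1.10 to -0.64, adjusted p = 4.5e-06 by edgeR). Within the label numbers 109 to 122, which held 2 of the SE 36 h and all Ctr 36 h libraries, the values were 254 and 262 against 443 to 449 CPM. Without SE 36 h replicate 3, which carried sensory ganglion genes, the log2 fold change was -0.79 (edgeR adjusted p = 8.4e-05), and over all 24 single libraries left out it ran from -0.92 to -0.79, called each time. Leaving out single libraries keeps the level of the Ctr 36 h group as a whole in place. Over 15 alternative settings, which included the mean of the 3 Ctr groups as reference, the log2 fold change ran from -0.88 to -0.69. It was called in 14 of these, all but that with a fold threshold of 1.

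At 72 h, Cacna1e stood at 222, 272 and 241 CPM after SE and at 371, 303 and 372 CPM in Ctr, again without overlap. The log2 fold change of -0.51 (-0.74 to -0.28, edgeR adjusted p = 0.0015) was under the fold threshold. With a term for the label range in the fit it was -0.45 and did not pass (edgeR adjusted p = 0.12). Here and below, that term took the place of the factor for unwanted variation. No SE 72 h library carried a number in the label range of the Ctr 72 h libraries. At 12 h the SE values of 323, 391 and 305 CPM overlapped the Ctr values of 395, 342 and 436 CPM (log2 fold change -0.20, -0.43 to 0.02, edgeR adjusted p = 0.14). At 6 h the 3 SE libraries, at 395, 380.1 and 376 CPM, lay inside the range of the 9 Ctr libraries, and the log2 fold change was -0.04 (-0.22 to 0.15, edgeR adjusted p = 0.78). At 24 h they had dropped to 244, 269.9 and 259 CPM, a log2 fold change of -0.61 (-0.80 to -0.42, edgeR adjusted p = 2.4e-05) against the mean of the Ctr groups. All SE 24 h libraries carried label numbers of 92 to 104, a range with no Ctr library, and with a term for the label range the value was -0.55 (edgeR adjusted p = 0.0079). The step from SE 12 h to SE 24 h, tested on its own, was -0.40 on the log2 scale (-0.62 to -0.17, edgeR adjusted p = 0.027), and from SE 36 h to SE 72 h the difference was 0.00 (-0.22 to 0.23, adjusted p = 1.00). The edgeR adjusted p of the step from 12 to 24 h passed 0.05 when SE 12 h replicate 2, SE 24 h replicate 1 or SE 24 h replicate 3 was left out, up to 0.13.

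The change in Cacna1e was compared between hours. The log2 fold change at 36 h minus that at 12 h was -0.665 (-0.98 to -0.35, edgeR adjusted p = 0.022), a comparison in which 3.38% of all genes and 1 of the 10 members were called, and lay just past the fold threshold of 0.66. Leaving out any of 6 libraries (Ctr 12 h replicate 2, any Ctr 36 h replicate, SE 12 h replicate 2 or SE 36 h replicate 3) ended this call, with log2 values of -0.55 to -0.67 and edgeR adjusted p of 0.052 to 0.064. With a term for the label range in the fit it was -0.68 (edgeR adjusted p = 0.055), and it fell under the fold threshold with at least 10 counts required in every library (-0.64) or with library size alone as the scale (-0.58). Cacna2d1 had a difference of similar size, -0.71 (-1.14 to -0.29), that did not pass (edgeR adjusted p = 0.055). Cacna1g was at -0.66 with a wide interval (-1.32 to -0.01, edgeR adjusted p = 0.24). Between 36 and 72 h 0 of 10 members were called beside 4.81% of all genes, and between 12 and 72 h 0 of 10 beside 18.6%, with an unadjusted edgeR p under 0.05 for 2 members in each and 0 calls by DESeq2 or limma-voom. Of the 18153 genes tested, 4042 and 6499 had such a p in these comparisons.

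Cacna2d1, the alpha2delta gene with the higher level, had a passing difference, each time lower after SE, at 4 of the 5 hours and was called at 24 and 36 h. At 24 h the SE libraries were at 139, 137 and 135 CPM, below each of the 9 Ctr libraries, which ranged from 178 to 276 CPM. The log2 fold change against the mean of the Ctr groups was -0.75 (-1.01 to -0.49, edgeR adjusted p = 7.0e-05), and it was called with each of the 24 libraries left out in turn. At 36 h the values were 155, 162 and 177 CPM after SE and 262, 260.3 and 276 CPM in Ctr, without overlap (log2 fold change -0.69, -0.998 to -0.390, edgeR adjusted p = 0.0011). That call was near the fold threshold: the log2 fold change was -0.65 when SE 36 h replicate 1 was left out and -0.75 when replicate 3 was. With library size alone as the scale it was -0.57, and against the mean of the 3 Ctr groups, a reference chosen after the data were seen, it was -0.49.

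At 12 h Cacna2d1 was at 189.6, 281 and 166 CPM after SE and at 220.3, 178 and 232 CPM in Ctr. SE 12 h replicate 2 was the highest of all 24 libraries, and the groups overlapped (log2 fold change 0.02, -0.28 to 0.32, edgeR adjusted p = 0.93). At 6 h, with 162, 176 and 191 CPM, the log2 fold change was -0.39 (-0.64 to -0.13, edgeR adjusted p = 0.016), which did not pass with a term for the label range (0.056) or without SE 6 h replicate 1 or 2 (0.081 and 0.056). At 72 h, 182, 154 and 151 CPM stood against 218, 252 and 191 CPM, a log2 fold change of -0.43 (-0.74 to -0.13, edgeR adjusted p = 0.033) that lost an adjusted p of 0.05 when Ctr 72 h replicate 1 or 2, or SE 72 h replicate 2 or 3, was left out (up to 0.15), or with a term for the label range (0.27). Both were under the fold threshold. The step from SE 12 h to SE 24 h was -0.64 on the log2 scale (-0.94 to -0.34, edgeR adjusted p = 0.011). Without SE 12 h replicate 2 it was smaller, at -0.38 (edgeR adjusted p = 0.050).

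Cacna2d2, the second alpha2delta gene, ranged from 34.4 to 71.6 CPM in Ctr and from 31.2 to 94.97 CPM in SE libraries. Its log2 fold changes lay between -0.19 at 6 h and 0.21 at 12 h. The intervals were wide, for example -0.50 to 0.53 at 36 h, so a change of the size seen in Cacna2d1 at 36 h lay outside that interval while smaller ones did not.

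Cacna1b, the N-type gene, was at 119.8, 143 and 94.8 CPM at 36 h after SE and at 183, 184 and 159 CPM in Ctr, without overlap. Its log2 fold change was -0.56 (-0.89 to -0.22, edgeR adjusted p = 0.011), under the fold threshold. It was -0.42 (edgeR adjusted p = 0.075) without SE 36 h replicate 3 and, as a called value, -0.71 (edgeR adjusted p = 0.0048) without SE 36 h replicate 2. At 24 h the libraries were at 114, 127 and 109 CPM (log2 fold change -0.47, edgeR adjusted p = 0.0089, and -0.24 with an adjusted p of 0.36 with a term for the label range). At 72 h they were at 116, 99.7 and 92.7 CPM against 135, 139 and 139 CPM (-0.42, edgeR adjusted p = 0.057). Cacna1b averaged over the 5 SE groups against the 3 Ctr groups was at -0.40 (-0.58 to -0.23, edgeR adjusted p = 0.00034).

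Cacna1a, the P/Q-type gene, was the only member with a passing difference upward. At 6 h it was at 192, 184 and 187 CPM, inside the Ctr range of 95.2 to 222 CPM, with a log2 fold change of 0.35 (0.08 to 0.62, edgeR adjusted p = 0.037) that was under the fold threshold. The adjusted p exceeded 0.05 when any of 6 libraries was left out (any SE 6 h replicate, Ctr 12 h replicate 1, Ctr 36 h replicate 3 or Ctr 72 h replicate 2), reaching 0.10. At 12 h its values of 151, 196 and 138 CPM overlapped the Ctr values of 147, 128 and 222 CPM. At 36 h they were 139.8, 132 and 133 CPM against 168, 169 and 147 CPM, apart but close (log2 fold change -0.26, -0.60 to 0.08, edgeR adjusted p = 0.25), and at 72 h the groups overlapped (-0.04, -0.38 to 0.31, edgeR adjusted p = 0.90).

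Of the L-type genes, Cacna1d was at 37.4, 37.5 and 38.9 CPM at 6 h and at 42.5, 39.9 and 43.5 CPM at 12 h after SE, against 71.2, 52.7 and 65.3 CPM in Ctr 12 h, so the 12 h groups did not overlap. The log2 fold change was -0.61 (-0.94 to -0.28, edgeR adjusted p = 0.0047) at 6 h and -0.59 (-0.98 to -0.20, edgeR adjusted p = 0.017) at 12 h, both under the fold threshold. The 12 h value did not pass with a term for the label range (-0.47, edgeR adjusted p = 0.14), with a sensory ganglion score as the covariate (adjusted p = 0.065) or without Ctr 12 h replicate 1 or SE 12 h replicate 2 (-0.50 and -0.55, adjusted p = 0.074 and 0.051). At 24 h, with 46.1, 43.8 and 33.8 CPM, Cacna1d had a log2 fold change of -0.49 (-0.81 to -0.16, edgeR adjusted p = 0.018). That fell short with a term for the label range (-0.33, adjusted p = 0.36) and without SE 24 h replicate 3 (-0.36, adjusted p = 0.13). At 36 h it was -0.56 (edgeR adjusted p = 0.025), with 51.7, 47.9 and 31.8 CPM against 64.5, 67.4 and 61.3 CPM. It did not pass without SE 36 h replicate 3, the lowest library (-0.37, edgeR adjusted p = 0.17), without Ctr 36 h replicate 1 or 2 (adjusted p = 0.060 and 0.078) or with a term for the label range (0.075). At 72 h, Cacna1d after SE (57.8, 44.7 and 48.4 CPM) lay within the Ctr values (66.6, 38.0 and 36.4 CPM), of which replicate 1 stood far above the other 2 (log2 fold change 0.09, -0.31 to 0.48). Cacna1c, the other L-type gene, ranged from 69.0 to 172 CPM in Ctr and from 59.2 to 113 CPM in SE libraries, and its log2 fold changes of -0.21 to -0.02 had intervals as wide as -0.74 to 0.33 at 36 h.

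None of the 3 T-type genes passed at any hour. Cacna1h was at 211, 163 and 159 CPM against 239, 164 and 194 CPM at 12 h, at 226, 177 and 187 CPM against 232, 221 and 219 CPM at 36 h, and at 201, 203 and 160.4 CPM against 166, 150.1 and 166 CPM at 72 h. The groups overlapped at each hour. The log2 fold changes of -0.16 (-0.57 to 0.24), -0.19 (-0.59 to 0.22) and 0.23 (-0.18 to 0.64) had intervals that held changes of either sign and stayed within the fold threshold. Cacna1h at 6 h ranged from 128 to 228 CPM, a wide spread for 1 group (log2 fold change -0.14, -0.47 to 0.20). Its 24 h log2 fold change was 0.08 (-0.25 to 0.41).

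Cacna1g was at 198, 177 and 261 CPM at 12 h after SE and at 212, 152 and 113 CPM in Ctr (log2 fold change 0.42, -0.05 to 0.88, edgeR adjusted p = 0.14). It was called higher there without Ctr 12 h replicate 1. At 6 h, with 189, 285 and 261 CPM, it was at 0.41 (0.04 to 0.78, edgeR adjusted p = 0.073), and by 36 and 72 h the fitted values were -0.24 and -0.04. Cacna1i had low fitted values late: 68.5, 64.8 and 86.6 CPM against 109, 119 and 103 CPM at 36 h, without overlap (log2 fold change -0.58, -1.06 to -0.10, edgeR adjusted p = 0.059), and 31.7, 49.4 and 64.5 CPM against 86.3, 46.7 and 81.0 CPM at 72 h, with overlap (-0.53, -1.03 to -0.04, edgeR adjusted p = 0.099). At 6 and 24 h it was at 0.18 and 0.09. Cacna1i was called lower at 72 h when Ctr 72 h replicate 2 or SE 72 h replicate 3 was left out, and at 12 h when SE 12 h replicate 2 was.

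The controls were not all alike. Ctr 36 h stood apart in both genes called at that hour, with Cacna1e at 443 to 449 CPM against 303 to 436 CPM in the other 6 Ctr libraries and Cacna2d1 at 260.3 to 276 CPM against 178 to 252 CPM. Its summed CA1 pyramidal markers were also the highest, at 1495 to 1586 CPM against 784 to 1310 CPM. These 3 libraries were the reference of the calls at 36 h and part of the difference between 36 and 12 h. In Ctr 72 h the fitted log2 values of all 10 genes lay below the mean of Ctr 12 h and Ctr 36 h. They ran from -0.66 (Cacna1i, edgeR adjusted p = 0.065) to -0.04 (Cacna2d2), and the median of all genes tested was -0.08. The share of all genes that lay below was not counted. By CPM, Cacna2d2 averaged 58.2 in Ctr 72 h, above 57.3 in Ctr 12 h and 57.6 in Ctr 36 h. In this comparison 0 of 10 were called beside 2.89% of all genes, and DESeq2 and limma-voom also called 0. The unadjusted edgeR p was under 0.05 for 6 of the 10. Of the 18153 genes tested, 4348 had an unadjusted p under 0.05 there. Cacna1a was at -0.47 (edgeR adjusted p = 0.063) and Cacna1e at -0.26 (edgeR adjusted p = 0.099). When Ctr 72 h replicate 1 was left out, 2 members were called in this comparison (Cacna1d and Cacna1i). All Ctr 72 h libraries carried label numbers of 162 to 169, a range that held only 1 Ctr 12 h and no Ctr 36 h library, so the hour and the label range cannot be told apart. With the mean of the 3 Ctr groups as the reference at 72 h, chosen after the data were seen, Cacna1e had a log2 fold change of -0.69 and was called, as was Cacna1i.

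Between successive SE groups a call needed an absolute log2 fold change of at least 1. None of the 10 genes was called from 6 to 12 h (beside 1.34% of all genes), from 12 to 24 h (3.18%), from 24 to 36 h (0.529%) or from 36 to 72 h (4.13%), by edgeR, DESeq2 or limma-voom, and the unadjusted edgeR p was under 0.05 for 0, 2, 1 and 1 of them in that order. Of the 18153 genes tested, 3730, 4474, 3015 and 4545 had such a p in the same order. Averaged over all SE groups against all Ctr groups, 0 of 10 were called beside 24.3% of all genes, by edgeR, DESeq2 or limma-voom. The unadjusted edgeR p was under 0.05 for 5 of them and for 10823 of the 18153 genes tested. In that average 4 members had an adjusted p of at most 0.05 (Cacna1b, Cacna1d, Cacna1e and Cacna2d1, all lower), against 55% of all genes in either direction, and their log2 values lay between -0.45 and -0.40.

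The balance among channel types was read from the share of each alpha1 gene in the summed CPM per kb of the 8 alpha1 genes. That sum was 106 ± 4.23 CPM per kb (SD, n = 3) in Ctr 36 h and 79.1 ± 2.17 in SE 36 h, and 79.1 ± 4.85 in Ctr 72 h and 71.2 ± 3.83 in SE 72 h. The share of Cacna1e was 16.5 ± 0.71% in Ctr 36 h and 12.1 ± 0.89% in SE 36 h, and 17.2 ± 1.57% and 13.4 ± 0.80% at 72 h. The libraries did not overlap at either hour, and the two-sided exact permutation p was 0.1, the smallest that 3 against 3 libraries allow. At 12 h the shares were 16.1 ± 1.16% and 15.01 ± 1.28% (exact p = 0.3). The share of Cacna1h was 18.5 ± 0.95% in Ctr 72 h and 24.1 ± 2.59% in SE 72 h, and 19.4 ± 0.68% and 22.7 ± 2.46% at 36 h (exact p = 0.1 at both hours), while its CPM overlapped between the groups. The T-type genes together made up 50.7 ± 0.48% in Ctr 36 h and 55.5 ± 5.23% in SE 36 h (exact p = 0.2), and 49.1 ± 2.10% and 54.0 ± 2.76% at 72 h (exact p = 0.2). Cacna1a was at 7.99 ± 0.31% and 8.94 ± 0.13% at 36 h (exact p = 0.1). With 30 such comparisons of shares, none could pass a correction. A share also moves when the other 7 genes move, and it depends on the exon lengths used. Without division by length, the T-type genes made up 37.3% in Ctr 36 h and 42.5% in SE 36 h. On that scale Cacna1e made up 29.7% and 22.5%.

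**Figure D3:**
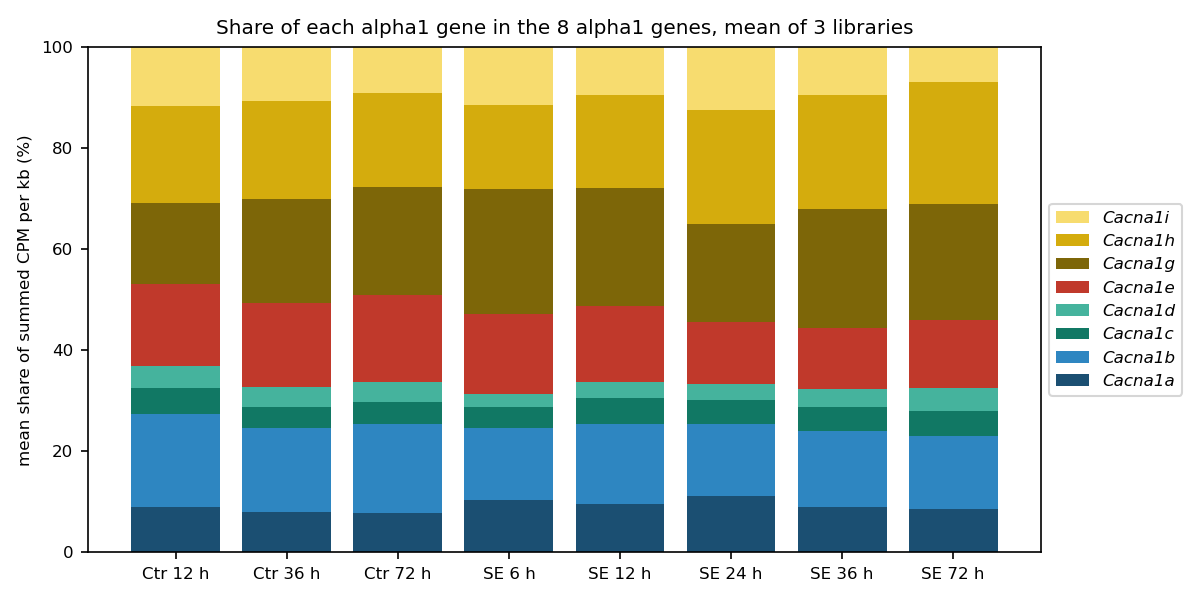
Mean share (%, n = 3 libraries) of each alpha1 gene in the summed CPM per kb of the 8 alpha1 genes, stacked to 100% for each group. The red band of Cacna1e narrows from 16.5% in Ctr 36 h to 12.1% in SE 36 h, and the T-type genes at the top take 50.7% and 55.5%.

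Levels of neuronal and glial markers moved with these results. The summed CPM of 12 general neuronal genes was 9638 to 9959 in Ctr 36 h and 7937 to 9416 in SE 36 h, and 9526 to 11406 in Ctr 72 h and 6607 to 7504 in SE 72 h. At 36 h, 2 of the 12 were called lower (Syt1 and Eno2) and 1 higher (Nefm), beside 8.91% of all genes lower and 12.7% higher. Of the 7 CA1 pyramidal genes, 4 were called lower at 36 h (Fibcd1, Pou3f1, Mpped1 and Lefty1), beside the same 8.91%. The sum of the 7 was 1495 to 1586 CPM in Ctr 36 h and 748 to 949 CPM in SE 36 h. The 11 microglial genes summed to 426 to 487 CPM in Ctr 36 h and 902 to 1008 CPM in SE 36 h, and to 421 to 506 CPM in Ctr 72 h and 1939 to 2775 CPM in SE 72 h, where all 11 were called higher. The 10 astrocyte genes summed to 5000 to 5786 CPM in Ctr 72 h and 13038 to 14545 CPM in SE 72 h, where 4 were called higher. Of all genes, 15.2% were called higher at 72 h. Per 1000 CPM of the neuronal sum, Cacna1e at 36 h did not overlap (23.1 to 33.0 after SE and 44.9 to 46.0 in Ctr), nor did Cacna2d1 (18.8 to 19.6 and 26.5 to 27.7). At 72 h both overlapped on that scale, at 29.6 to 38.9 and 26.6 to 38.97 for Cacna1e and at 22.01 to 24.3 and 18.6 to 22.9 for Cacna2d1. Of the other members, Cacna1i lay lower at 36 h without overlap. Cacna1c and Cacna1h lay higher at 72 h, Cacna1h at 24.3 to 29.1 after SE and 13.2 to 17.4 in Ctr. The rest overlapped at 12, 36 and 72 h. Per 1000 CPM of the CA1 pyramidal sum, a scale added after the data were seen, the order at 36 h was another one. Cacna1e overlapped, at 229.7 to 351 after SE and 282 to 300.4 in Ctr, and Cacna2d1 lay higher after SE, at 186 to 213 against 169 to 176. This was not particular to Cacna2d1. Cacna1a, Cacna1g, Cacna1h, Cacna1i and Cacna2d2 also lay higher without overlap, while Cacna1b, Cacna1c and Cacna1d overlapped. The CA1 sum was lower in SE 36 h than in Ctr 36 h, so dividing by it raises the SE value of any gene relative to Ctr. The share of all genes without overlap was not counted on either scale, so these counts are not a result about the members. The values of Cacna1e and Cacna2d1 at 36 h thus depended on which neuronal markers they were set against, and the part of cell composition in the results was not tested further.

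The 5 genes whose log2 CPM followed Cacna1e most closely over the 24 libraries, among the 13749 genes whose log2 CPM averaged 1 or more, were Psd3 (Pearson r = 0.909), Tmem201 (0.907), Rims1 (0.899), Isca1 (0.895) and Hrk (0.893). All libraries share the SE and Ctr grouping, and within groups the r fell to between 0.432 for Tmem201 and 0.771 for Hrk. Among the members, Cacna1b (r = 0.82) and Cacna2d1 (r = 0.73) were closest to Cacna1e, and the highest r of any pair but that with Cacna1b was between Cacna1a and Cacna1i (r = 0.81). These are descriptions over libraries that share conditions.

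Of 17 other subunit genes, 15 were in the table. At 12 h, 3 were called higher and 4 lower, then 4 higher and 3 lower at 36 h and 4 higher and none lower at 72 h, beside 13.9%, 12.7% and 15.2% of all genes higher and 11.4%, 8.91% and 4.21% lower. Their median log2 fold changes were -0.15, -0.38 and -0.35 at these hours, where the medians of all genes tested were 0.01, 0.00 and 0.10. The genes called lower included the beta subunits Cacnb2 and Cacnb3, which bind the alpha1 subunit inside the cell and aid its traffic. Cacnb3 was at 133, 154 and 128 CPM against 204, 225 and 285 CPM at 12 h (log2 fold change -0.78, edgeR adjusted p = 0.00052) and at 120.0, 104 and 142 CPM against 264, 260.1 and 294 CPM at 36 h (-1.16, edgeR adjusted p = 9.5e-06), without overlap at either hour, and it was called at 24 h as well (-0.80). Cacnb2 fell by 1.13 and 1.06 on the log2 scale at these hours (edgeR adjusted p = 0.00034 and 0.00062) and was called lower at 6 h too (-0.79). Cacnb1 and Cacnb4 were not called at any of the 5 hours.

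Cacna2d3, another alpha2delta gene, was called lower at 12 h (log2 fold change -1.08, edgeR adjusted p = 0.00071), and Cacng2, a gamma-family gene known for its part in AMPA receptor traffic, at 36 h (-0.84). Cachd1 was called lower at 12 h (-0.73) and higher at 72 h (0.91). Cacng3 was called higher at 6 h (1.02) and 12 h (0.99), though SE 12 h replicate 1, at 55.5 CPM, lay within the Ctr values of 48.2 to 72.6 CPM while the other 2 were at 149 and 169 CPM. Cacng5 was called higher at 36 and 72 h (0.94 and 1.13). Cacna2d4, Cacna1f and Cacng6, called higher at 5, 4 and 4 of the 5 hours, were at low levels: Cacna2d4 was at 0.17 to 1.73 CPM in Ctr and 0.77 to 6.30 CPM in SE libraries. The Cacna1f value at 36 h rested on SE 36 h replicate 2, with 15.8 CPM against 2.52 and 1.31 CPM in the other 2 libraries.

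Of 7 regulators of the channels, 4, 2 and 1 were called higher in the 12, 36 and 72 h comparisons, with 3 and 5 in those of 6 and 24 h, and 1 was called lower at 72 h. Of all genes, 13.9%, 12.7% and 15.2% were called higher at 12, 36 and 72 h, and 22% and 24.1% were called in either direction at 6 and 24 h. The list's median log2 fold change was 1.69, 0.21 and 0.13 at 12, 36 and 72 h. Gem, a small GTPase that binds beta subunits and holds down high-voltage-activated calcium currents, was at 8.002, 19.4 and 15.3 CPM at 12 h against 1.04, 2.00 and 1.08 CPM in Ctr, a log2 fold change of 3.31 (edgeR adjusted p = 5.6e-06). At 24 h Gem was at 45.5, 25.1 and 61.0 CPM (4.38 against the mean of the Ctr groups), and it was still called at 36 h (1.18) and 72 h (1.28). Rrad, of the same GTPase family, was at 7.95, 21.7 and 17.5 CPM against 1.42, 1.04 and 0.42 CPM at 12 h (log2 fold change 4.09, edgeR adjusted p = 3.8e-05) and was called at 6, 24 and 36 h too. Rem2, also of this family, was called higher at 6, 12 and 24 h (1.41, 2.02 and 3.11), and Stac, an adaptor of L-type channels, at 12 and 24 h (1.69 and 0.96). Stac3 was called higher at 24 h (0.67) and lower at 72 h (-1.49), and Rem1 and Stac2 were not called.

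**Figure D4:**
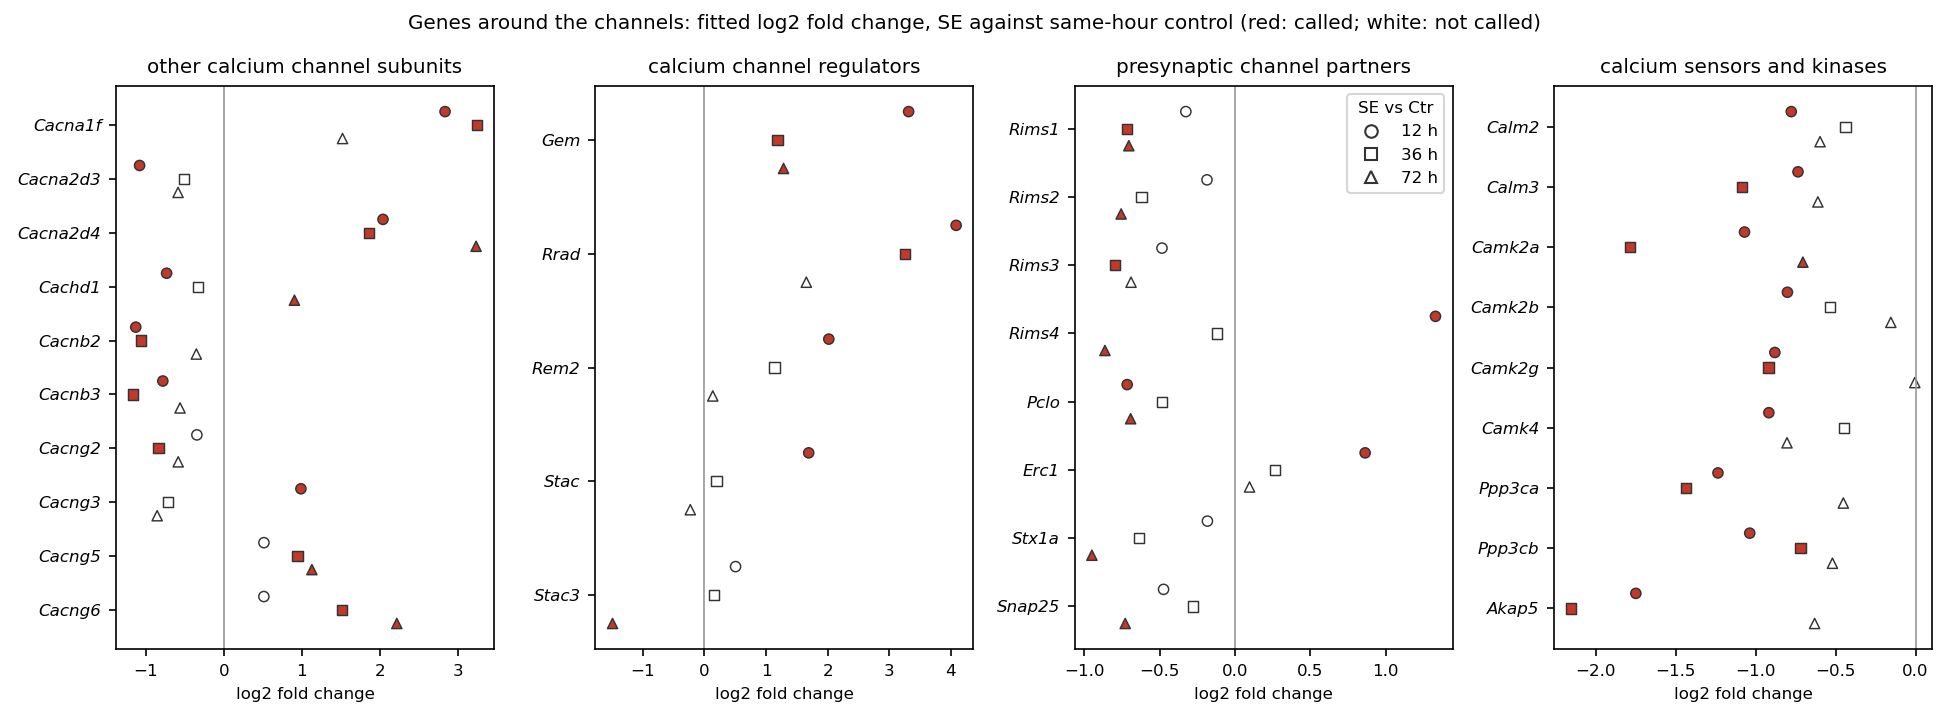
Fitted log2 fold change of SE against the Ctr group of the same hour for the genes around the channels that were called at 1 or more of these hours, in 4 panels with separate axes; circles are 12 h, squares 36 h and triangles 72 h, filled red where called. Gem (3.31) and Rrad (4.09) stand far to the right at 12 h, and Camk2a, Ppp3ca and Akap5 stand to the left at 12 and 36 h.

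Proteins that tether channels at the active zone formed the next list of 12. At 12 h 2 were called higher and 1 lower, at 36 h 2 lower, and at 72 h 6 lower and none higher, beside the shares of all genes given for the other lists, with list medians of -0.30, -0.34 and -0.69 on the log2 scale. Rims1, a scaffold that ties calcium channels to vesicles, was at 117, 136 and 119.6 CPM against 208, 209.5 and 194 CPM at 36 h (log2 fold change -0.72, edgeR adjusted p = 7.2e-05) and was called lower at 72 h as well (-0.70, edgeR adjusted p = 0.00012). The other 5 called lower at 72 h were Rims2 (-0.76), Rims4 (-0.86), Pclo (-0.69), Stx1a (-0.95) and Snap25 (-0.73). Rims3 was called lower at 36 h (-0.80). Rims4 and Erc1 were called higher at 6 h (1.08 and 1.04) and 12 h (1.33 and 0.86), and Erc2 lower at 6 h (-0.93).

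Of 14 calcium sensors, kinases and phosphatases that act below the channels, 9, 6 and 1 were called lower in the 12, 36 and 72 h comparisons, with 5 in that of 24 h and none in that of 6 h, and none was called higher. Of all genes, 11.4%, 8.91% and 4.21% were called lower at the first 3 of these hours, and 24.1% and 22% were called in either direction at 24 and 6 h. The list medians were -0.79, -0.50 and -0.55 on the log2 scale at 12, 36 and 72 h. Akap5, which anchors kinase and calcineurin at L-type channels, was at 27.1, 21.7 and 32.1 CPM against 98.3, 90.8 and 82.2 CPM at 12 h (log2 fold change -1.75) and had the largest fall of the list at 36 h (-2.15, edgeR adjusted p = 8.8e-07). Camk2a, a kinase of excitatory synapses activated by calcium and calmodulin, was lower at 12, 24, 36 and 72 h (-1.07, -1.44, -1.79 and -0.71), and Ppp3ca, the catalytic subunit of calcineurin, at 12, 24 and 36 h (-1.24, -1.19 and -1.44). Calm3 (-0.74 and -1.08), Camk2g (-0.88 and -0.92) and Ppp3cb (-1.04 and -0.72) were called lower at 12 and 36 h, and Calm2, Camk2b and Camk4 at 12 h.

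The 3 transcription factors on the list were all called higher at 12 h, beside 13.9% of all genes. Egr1, an immediate early gene, was at 421, 413 and 867 CPM against 102, 109 and 68.1 CPM (log2 fold change 2.60, edgeR adjusted p = 0.0026), Mtf1, the metal-responsive factor, at 60.8, 62.2 and 63.1 CPM against 38.0, 38.2 and 40.1 CPM (0.68, edgeR adjusted p = 9.4e-05), and Rest, a repressor of neuronal genes, at 20.0, 21.5 and 23.4 CPM against 6.34, 4.29 and 5.30 CPM (2.02). Egr1 was also called at 6 and 24 h (2.06 and 2.08) and not at 36 or 72 h, and Rest was called at each of the 5 hours, with 1.67 at 36 h and 1.29 at 72 h. The lists of genes around the channels were written with earlier results of these data known.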

How the data were processed

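Whole-number counts per gene of 24 CA1 libraries were taken as deposited. Per the study's methods and the submitters' processing notes, the authors trimmed reads with Trim Galore 0.6.6, aligned them to GRCm39 with STAR 2.7.8a, sorted the alignments with SAMtools 1.10 and made the counts with HTSeq 0.13.5 without regard to strand. Symbols, exon lengths and promoters came from a later GENCODE release for the same build (18552 of 18647 identifiers matched). Genes passing edgeR's filter on low counts (18153) were scaled by TMM and fitted with edgeR 4.0.16 in R 4.3.3 (quasi-likelihood test) over all 8 groups, with 1 RUVr factor for unwanted variation. Benjamini-Hochberg adjustment covered all genes tested. Fold changes and 95% intervals came from this fit, while CPM were counts divided by the TMM-scaled library size, without the RUVr factor. A call took an adjusted p no higher than 0.05 with a log2 fold change of 0.66 or more in size, or 1 between SE groups. The fit was tested on simulated data. DESeq2 1.42.0, limma 3.58.1 (voom), other scalings, filters, thresholds and covariates, thinned counts and leaving out each library were tried as alternatives. The label range and the sensory ganglion score were each fitted in place of the RUVr factor. Named were all 10 members, the genes called in the lists of other subunits, regulators, presynaptic partners, sensors and kinases and transcription factors, and the 5 genes most like the member with the largest called fall; uncalled list genes were named after their values were seen. The members and lists were chosen with earlier results of these data known. Totals of 2663936 to 30133731 counts per library set the precision. It covers counting error and the spread between libraries left after the RUVr factor, with 1 estimate shared by all groups. Values of some genes of these lists are not reported here.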

Additional observations from a re-analysis of the deposited data

Results flagged for a closer look

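The SE effect on Cacna1e differed between hours by a test of the difference itself. The log2 fold change at 36 h minus that at 12 h was -0.665 (edgeR adjusted p = 0.022), with 3 libraries in each of the 4 groups. The SE 36 h libraries were all below the Ctr 36 h libraries, while those at 12 h overlapped. The value lay just past the fold threshold of 0.66. The call was lost when any of 6 single libraries was left out, with at least 10 counts required in every library (-0.64), with library size alone as the scale (-0.58) and with a term for the label range (-0.68, edgeR adjusted p = 0.055). Groups of 3 are too small for the test of single outlying libraries.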

How the results depend on the processing

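Of 199 counts of called members under settings other than leaving out 1 library, 179 stayed within 1.5 times the main count. The 199 include those with the mean of the 3 Ctr groups as reference, which was not planned. In most comparisons the main count was 0, and there staying the same meant staying at 0. With no fold threshold, the 12, 36 and 72 h comparisons gave 1, 4 and 2, those of 6 and 24 h gave 3 and 4, and there were 4 for the mean of SE against the mean of Ctr and 2 from SE 12 h to SE 24 h. With a threshold of 1 on the log2 scale it was 0 at 36 h, 0 at 24 h and 0 for the difference between 36 and 12 h. These follow from the threshold. At 36 h the count was 1 with library size only, 1 with at least 10 counts in every library and, chosen after the data were seen, 1 with the mean of the 3 Ctr groups as reference, each time Cacna1e. That reference gave 2 at 72 h (Cacna1e and Cacna1i). The difference between 36 and 12 h gave 2 with DESeq2, 2 with DESeq2 size factors in edgeR, 0 with library size only and 0 with a term for the label range. At 6 h, thinned counts gave 1 (Cacna1d). The cause was not tested.

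Replicate numbers did not pair the libraries: 84 pairs with the same number had a median correlation of -0.003 in their deviations from group means, and 19 were over 0.1. With the replicate block, the difference between 72 and 12 h gave 1 called member (Cacna1d), and Cacna1e at 36 h stayed at -0.87.

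With each library left out in turn, the counts ran from 0 to 1 at 12 h, 2 to 3 at 36 h, 0 to 1 at 72 h, 0 to 2 for 36 minus 12 h, 0 to 1 for 72 minus 36 h, 0 to 1 for 72 minus 12 h and 0 to 2 for Ctr 72 h. The 12 h calls were Cacna1g without Ctr 12 h replicate 1, Cacna1d without Ctr 12 h replicate 2 and Cacna1i without SE 12 h replicate 2. Cacna1d was the call for 72 minus 36 h and 72 minus 12 h, both without Ctr 72 h replicate 1. For 21 log2 values, chosen by an edgeR adjusted p of at most 0.05 in the main fit, 0 of 301 under alternatives and 0 of 504 with a library left out had the opposite sign. That choice made a change of sign unlikely. For the other 59 log2 values, the sign was opposite in 50 of 849 under alternatives. With a library left out it was opposite in 67 of 1416. None of these was called. Library size alone moved the median of all genes at 36 h to 0.13 and the calls from 2308 higher and 1618 lower to 2782 and 1197. The depth limits Cacna1d most, with 97 counts in its lowest library.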
